A study of Mus musculus with 6 samples.

Results

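Chromosome 11 of the mouse carries Nf2, Egfr, Trp53 and Nf1, and its copy number was followed here in malignant mesothelioma cells of 5 tumours named ARF-129, ARF-128, ARF-112, ARF-110 and ARF-104. The members were the 12498 non-control probes whose mm7 position in the denser ARF-128 array lies on chromosome 11, of 220065 probes on the 19 autosomes. The sparser arrays were joined to them by probe name, which left 2966 of these probes there. The probes run from 3078911 to 122089685, a span of 119 Mb.

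The series is an array comparative genomic hybridization study of mesotheliomas raised by asbestos in Arf knock-out mice. Each array carried tumour DNA in Cy5 against C57BL/6J DNA in Cy3, dyes were not swapped, and a positive log2 ratio stands for extra tumour copies. The denser design was used for all of them but ARF-110, which was read on a sparser one. ARF-128 was also read on the sparser design. By the file headers, ARF-104, ARF-112 and ARF-129 were scanned on the same day and the denser ARF-128 array on another. Both sparser arrays were scanned on a further day, so scan day cannot be told apart from the array design. The denser ARF-128 array carries the word PlusMinus in its title, with no meaning given in the sources used here. Both were taken as 1 tumour because both titles hold the name ARF-128, a reading the labels do not settle. Their source name is the same, but ARF-110, ARF-112 and ARF-129 carry it too. The denser array stands for ARF-128 unless the sparser one is named. The design text speaks of Arf(+/-) mice and gives fewer mice than the titles give tumours. The labels call the cells primary mesothelioma cells for every tumour but ARF-104, whose cell type they leave out. The tumours were treated as separate animals, which the labels do not settle, and there is no replicate culture, so tests over the 5 tumours rest on that reading and their spread includes array noise.

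Nf2 encodes merlin, which restrains growth through the Hippo pathway and is often inactivated in human mesothelioma. Trp53 encodes p53, which halts or kills damaged cells and is stabilised when Arf blocks its inhibitor Mdm2. Nf1 encodes neurofibromin, which switches RAS off, and Egfr encodes a growth factor receptor that switches RAS on. In the mouse these genes are linked, so a loss of 1 large stretch could remove several suppressors together.

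The probes that read Trp53 are few, so their sequences are shown with those that read Nf2 on every array. Sequences are 5′ to 3′ as the denser ARF-128 array lists them, capitals mark G and C, and no source used here gives the strand.

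Trp53 probe at chr11:69661635-69661694: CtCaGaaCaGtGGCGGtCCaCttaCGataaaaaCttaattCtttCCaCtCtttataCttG
Trp53 probe at chr11:69665193-69665252: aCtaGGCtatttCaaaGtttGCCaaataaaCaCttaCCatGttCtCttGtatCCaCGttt
Trp53 probe at chr11:69672757-69672816: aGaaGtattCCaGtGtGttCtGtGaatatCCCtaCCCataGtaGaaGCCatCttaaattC
Nf2 probe at chr11:4724316-4724375: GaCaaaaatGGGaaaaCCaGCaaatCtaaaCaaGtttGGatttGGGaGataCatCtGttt
Nf2 probe at chr11:4746864-4746923: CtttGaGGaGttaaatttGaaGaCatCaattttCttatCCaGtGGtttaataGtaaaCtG

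The arrays differed in noise, which sets how short a change could be seen. The noise between neighbouring probes was 0.366 in ARF-104, 0.774 in ARF-128, 0.152 in ARF-110, 0.486 in ARF-129 and 0.394 in ARF-112, on the log2 scale. The log2 ratio of 1 copy in place of 2 in every cell is -1. At these noise values finding a stretch at -1 needs about 13 probes in ARF-104, 57 in ARF-128, 23 in ARF-129 and 15 in ARF-112. A shallower stretch would need more. The sparser ARF-128 array had noise of 0.431. The chromosome means of the 2 ARF-128 arrays over 19 autosomes correlated at 0.927, while the sparser one correlated with ARF-104 at 0.915 and the denser one with ARF-104 at 0.835. Over single chromosome 11 probes they correlated at only 0.404, against 0.669 to 0.730 between the sparser ARF-128 array and the denser arrays of the other tumours.

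No tumour had a called loss on chromosome 11, and no gain of the whole chromosome was called. The mean log2 ratio of the chromosome was -0.054 in ARF-104, -0.079 in ARF-128, -0.010 in ARF-110, 0.055 in ARF-129 and 0.180 in ARF-112. ARF-112 stands highest, and the other tumours lie close to 0. With normexp background correction the mean was above 0 in all 5 tumours, at 0.013 in ARF-104, 0.018 in ARF-128, 0.006 in ARF-110, 0.067 in ARF-129 and 0.099 in ARF-112. The second ARF-128 array gave -0.014. The mean over the 5 tumours was 0.018 ± 0.104 (SD, n = 5), not different from 0 in an exact two-sided sign-flip test (p = 0.8125, adjusted over 19 autosomes 0.965). With 5 tumours this test cannot give a p below 0.0625, the value it took with normexp, where the mean over tumours was 0.041. Chromosome 11 ranked 7 of the 19 autosomes by mean from high to low, and 15 of 19 by its spread between tumours. In ARF-112 it ranked 4 of 19, and in ARF-128 it ranked 17 of 19.

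**Figure D1:**
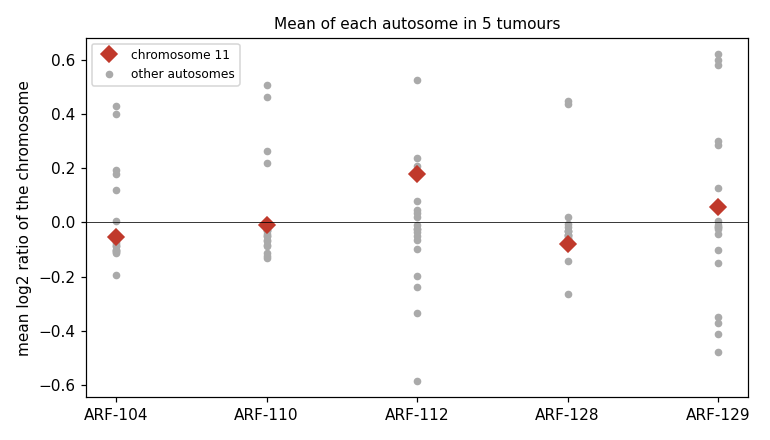
Mean log2 ratio of each of the 19 autosomes (grey points) in the 5 tumours, with chromosome 11 as red diamonds. Chromosome 11 lies between -0.079 and 0.180 and inside the range of the other autosomes in all 5 tumours.

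Segmentation by penalised least squares, with a penalty of 5 times log n for each border, divided the chromosome at 6 borders in all, and 2 segments passed the call of 0.25 on the log2 scale, both of them gains. ARF-128 formed 1 segment from end to end on each of its arrays. ARF-104 had 1 border, between 94278118 and 94303929 next to Tob1, with -0.072 before it and -0.009 after it. ARF-112 and ARF-129 shared 1 border to the probe, between 49519541 and 49525168 next to Flt4, a receptor of lymphatic vessels. ARF-112 stood at 0.117 before it and 0.206 after it, and ARF-129 at -0.030 before it and 0.061 after it. The steps are small, and no segment on either side reached the call. Both arrays were scanned on the same day. At a call of 0.15, gains would cover 70.2% of the chromosome 11 probes in ARF-112.

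**Figure D2:**
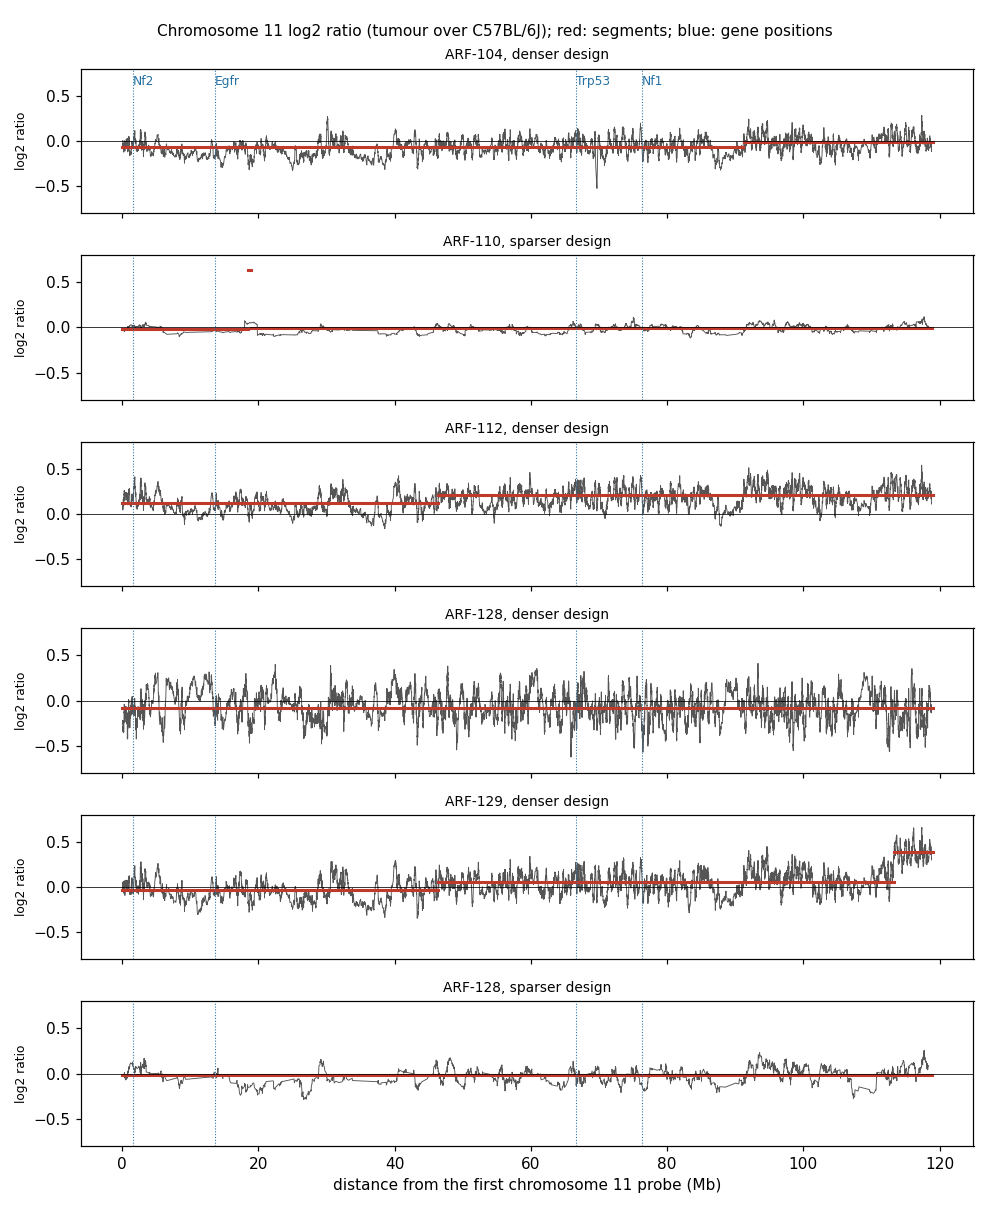
Running mean of 31 probes (grey) along chromosome 11 for each array, by distance from the first probe in Mb, with segments in red and the positions of Nf2, Egfr, Trp53 and Nf1 dotted. The segments lie near 0 except the distal segment of ARF-129 at 0.386, a short one of ARF-110 at 0.630 and the raised level of ARF-112.

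The shared border was looked at in the arrays whose segmentation had not placed one there. Within 5 Mb on each side, the right side minus the left was 0.084 ± 0.031 in ARF-129 and 0.076 ± 0.025 in ARF-112 (SE over probes). It was 0.032 ± 0.023 in ARF-104, -0.029 ± 0.048 in ARF-128 and 0.004 ± 0.022 in ARF-110. The step next to Tob1 was wider across arrays: 0.183 in ARF-104, -0.034 in ARF-128, 0.093 in ARF-110, 0.254 in ARF-129 and 0.235 in ARF-112. It was also 0.235 in the sparser ARF-128 array, so the side after it was the higher in 5 of 6 arrays. Ratios of the probes correlated with their GC content at 0.078 to 0.241, and after correction for GC the step was still 0.166 in ARF-104 and 0.236 in ARF-129.

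The clearest change on the chromosome was a gain of its end in ARF-129, chr11:116337904-122089685. Its 822 probes averaged 0.386 ± 0.019 (SE over probes) in ARF-129. The same stretch averaged 0.013 in ARF-104, -0.129 in ARF-128, 0.032 in ARF-110 and 0.258 in ARF-112, and 0.075 in the sparser ARF-128 array. ARF-129 is the highest, and ARF-112 also lies above 0 there, near its level along the chromosome. Against the 1 Mb before it, the stretch was 0.273 ± 0.044 higher in ARF-129, while the difference was -0.021 ± 0.034 in ARF-112, -0.008 ± 0.032 in ARF-104 and 0.022 ± 0.024 in ARF-110. It was 0.160 ± 0.070 in ARF-128, where the 1 Mb before it averaged -0.289, and 0.106 ± 0.056 in its sparser array. Within 5 Mb on each side of the border, the right side minus the left was 0.288 ± 0.031 in ARF-129. That difference was -0.051 ± 0.048 in ARF-128 and 0.122 ± 0.047 in its sparser array. In the denser ARF-128 array the sign of the step thus turned with the width compared. A gain to 3 copies in every cell would stand at 0.58. With normexp background correction, which adds an offset of 50 to both signals and so draws ratios towards 0, the stretch averaged 0.194 in ARF-129. With the call kept at 0.25, called gains then covered 0.104% of the chromosome 11 probes of ARF-129. At a call of 0.4 the stretch was not called. Called gains covered 6.58% of the chromosome 11 probes in ARF-129, against 20.8% of its autosomal probes, and called losses covered 0%, against 26.9%.

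The gained end holds 149 genes by the array's names, from Evpl at its border, an envelope protein of keratinised cells, to the last probes. Of the 125 genes lying wholly inside and read in all tumours, 106 (84.8%) were above 0 in ARF-129, against 827 of 1449 (57.1%) on the rest of the chromosome. The stretch was delimited on these ARF-129 values, so the share describes it and tests nothing. Their median was 0.018 in ARF-104, -0.155 in ARF-128, 0.028 in ARF-110, 0.397 in ARF-129 and 0.276 in ARF-112. Of the listed genes it held Birc5, the apoptosis inhibitor survivin, and Mafg, a small partner of stress-response factors. Mafg read 0.793 in ARF-129, 0.280 in ARF-104, 0.253 in ARF-128, 0.187 in ARF-110 and 0.559 in ARF-112. Birc5, by 2 probes on denser arrays and 1 otherwise, read -0.024 in ARF-104, -0.451 in ARF-128, -0.047 in ARF-110, 0.167 in ARF-129 and 0.204 in ARF-112. In the sparser ARF-128 array Birc5 read 0.077 and Mafg 0.719.

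**Figure D3:**
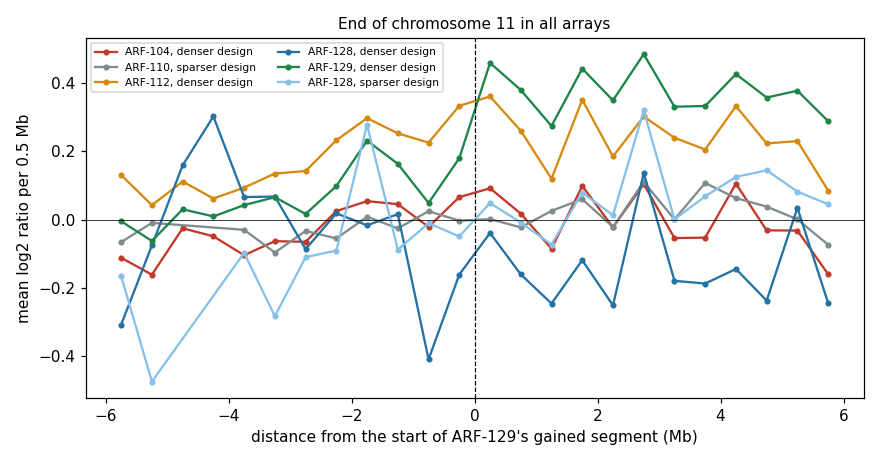
Mean log2 ratio per 0.5 Mb within 6 Mb of the start of the gained segment of ARF-129, by distance from that start in Mb, for all 6 arrays. ARF-129 lies above all other arrays past the border, with ARF-112 next.

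The second called gain, in ARF-110, was a stretch of 5 probes at chr11:21532928-21947394, from within Wdpcp to Otx1, that averaged 0.630. It rested on 1 probe in no named gene, which read 3.00 while the median of the 5 was 0.077. That probe read -0.648 in ARF-104, -0.863 in ARF-128, -0.727 in ARF-129 and 0.113 in ARF-112, and 0.828 in the sparser ARF-128 array. The gain was not called with dim spots left out, with a penalty of 10 log n or with normexp. The probe is 18.3% G and C, and its sequence is shown because it carries this call alone.

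Probe of the ARF-110 gain at chr11:21858911-21858970: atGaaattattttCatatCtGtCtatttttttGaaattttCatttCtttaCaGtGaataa

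Called gains covered 0.169% of the chromosome 11 probes in ARF-110, against 13.4% of its autosomal probes. They covered 0% of it in ARF-128 (autosomes 8.04%), ARF-112 (autosomes 9.19%) and ARF-104 (autosomes 16.8%). Called losses covered 0% of the chromosome in all 5 tumours, against 1.11% of autosomal probes in ARF-104, 1.77% in ARF-128, 2.73% in ARF-110 and 14.8% in ARF-112. Losses were thus seen in each tumour elsewhere in the genome, the deepest segment of 20 or more probes standing at -3.30 in ARF-104, -5.30 in ARF-128, -0.465 in ARF-110, -2.47 in ARF-129 and -2.07 in ARF-112.

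No loss was called around the suppressors in any tumour. None of the 15 pairs of a suppressor (Nf2, Trp53 or Nf1) and a tumour lay in a segment called lost. Each stretch is the gene's probes and 0.5 Mb on either side. The 15 stretch means lay between -0.138 and 0.274, and all 15 of their 95% intervals over probes lay above -1, the lowest reaching -0.279. These intervals cover probe noise only. On the denser arrays 11 of the 134 Nf2 stretch probes and 3 of the 184 Trp53 ones lay in the gene. A stretch mean above -1 thus says little about a loss limited to either gene. Finding a stretch at -1 took about 13 probes in ARF-104, the fewest of the denser arrays, and 57 in ARF-128. The segmentation would thus miss a loss at -1 of Nf2 or Trp53 alone on the denser arrays, and one of Nf1 (34 probes) in ARF-128. Over each gene's own probes, the 95% intervals reached lowest in ARF-128, to -0.723 for Nf2, -0.734 for Trp53 and -0.677 for Nf1. In the sparser ARF-128 array that of Nf1 reached -0.834. These intervals too cover probe noise only, and those of Trp53 rest on 3 probes or fewer. In ARF-110 each gene had fewer probes than the 5 a segment needs.

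For Nf2, at chr11:4724316-4798152, the stretch mean was -0.034 in ARF-104, -0.122 in ARF-128, 0.015 in ARF-110, 0.047 in ARF-129 and 0.210 in ARF-112. Its own 11 probes averaged -0.125 in ARF-104, -0.228 in ARF-128, -0.192 in ARF-129 and 0.076 in ARF-112, and 0.131 over the 2 probes shown above in ARF-110. Those 2 probes were above 0 in ARF-110 and in the sparser ARF-128 array. On the denser arrays they read -0.418 and -0.3301 in ARF-104, -0.137 and -0.1901 in ARF-112, and -0.394 and -0.715 in ARF-129. The denser ARF-128 array read 0.109 and -0.725. Most of these denser-array values lay below 0, so the 0.131 of ARF-110 cannot be told apart from the array design.

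For Trp53, at chr11:69661635-69672816, the stretch mean was 0.019 in ARF-104, -0.093 in ARF-128, 0.006 in ARF-110, 0.133 in ARF-129 and 0.274 in ARF-112. Its own probes averaged 0.176 in ARF-104, 0.378 in ARF-128, 0.015 in ARF-110, 0.382 in ARF-129 and 0.527 in ARF-112. The middle probe shown above was the highest of the 3 in each denser array, at 0.342 in ARF-104 and 1.23 in ARF-128. The sparser ARF-128 array read -0.018 over its 2 Trp53 probes and -0.033 over the stretch, and the 95% interval of the 3 probes in the denser one ran from -0.734 to 1.49.

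For Nf1, at chr11:79428638-79662968, the stretch mean was -0.026 in ARF-104, -0.138 in ARF-128, -0.016 in ARF-110, 0.056 in ARF-129 and 0.210 in ARF-112. Its own 34 probes read lower than the rest of the stretch in the denser arrays, at -0.204 ± 0.054 in ARF-104, -0.479 ± 0.101 in ARF-128, -0.160 ± 0.074 in ARF-129 and 0.022 ± 0.055 in ARF-112 (SE over probes). In ARF-110 its 4 probes read -0.017 ± 0.076, at the level of the stretch, and in the sparser ARF-128 array the same 4 read -0.488 ± 0.176. Of the 34 probes, 23 were below 0 in ARF-104, 27 in ARF-128, 21 in ARF-129 and 16 in ARF-112. Over all chromosome 11 probes, the denser arrays of ARF-129, ARF-112 and ARF-104 correlated with each other at 0.881 to 0.912, and with that of ARF-128 at 0.587 to 0.666. The arrays of ARF-129, ARF-112 and ARF-104 also share a scan day, so the day cannot be told apart from this common pattern. The part of this common pattern in the Nf1 values was not tested.

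For Egfr, at chr11:16708664-16865021, the stretch mean was -0.111 in ARF-104, -0.046 in ARF-128, 0.001 in ARF-110, 0.010 in ARF-129 and 0.133 in ARF-112. It was 0.097 in the sparser ARF-128 array. The own probes of Egfr averaged -0.121 in ARF-104, -0.163 in ARF-128, -0.108 in ARF-110, -0.025 in ARF-129 and 0.102 in ARF-112. They were lower than the rest of the stretch in all 5 tumours, so this was not particular to Nf1. Nf1 was also lower in 5, though by only 0.0016 in ARF-110, Nf2 in 4 and Trp53 in 0. No Egfr gain was called.

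Set against the rest of chromosome 11, the Trp53 stretch was 0.050 ± 0.047 higher (SD, n = 5; higher in 4 of 5 tumours), and it differed by -0.057 over the probes shared by both designs. The Nf2 stretch differed by 0.005 ± 0.031, the Nf1 stretch by -0.001 ± 0.036 and the Egfr stretch by -0.021 ± 0.040. None of the 4 differences passed an exact two-sided sign-flip test (p = 0.75 for Nf2, 0.125 for Trp53, 0.875 for Nf1 and 0.25 for Egfr, adjusted over 4 stretches 0.875, 0.5, 0.875 and 0.5).

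**Figure D4:**
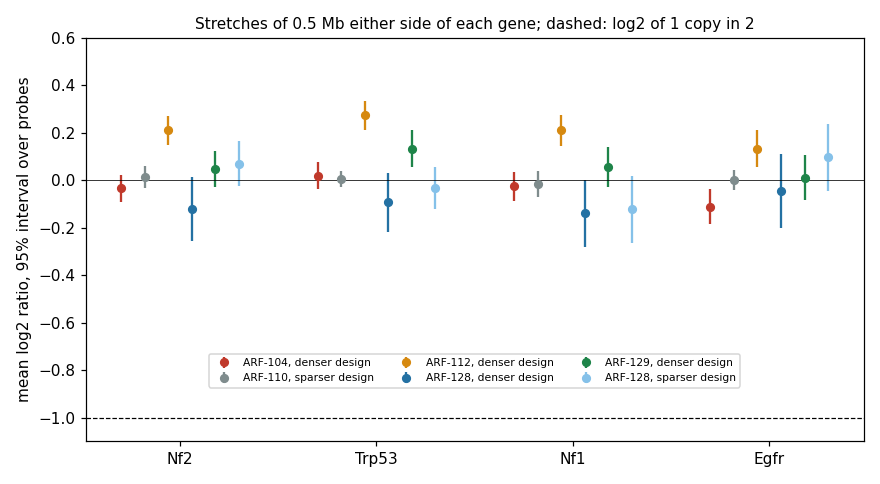
Mean log2 ratio of the stretches around Nf2, Trp53, Nf1 and Egfr in each array, with 95% intervals over probes, against 0 (line) and -1 (dashed). The suppressor stretches lie between -0.138 and 0.274 in the 5 tumours, and none reaches down to -1.

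Shorter changes appeared when the pattern shared by the arrays was removed. Each denser array was set against the mean of the other denser arrays of ARF-129, ARF-112 and ARF-104, probe by probe, a comparison chosen after seeing how closely these arrays correlated. This gave 18 borders over 4 tumours. Because the stretches below were found in ARF-104 this way, their values are a description with no test.

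The deepest was at Ube2g1, which encodes a ubiquitin-conjugating enzyme, at chr11:72658363-72744753. Its 11 probes averaged -0.956 ± 0.125 (SE over probes) in ARF-104, and all 11 were below 0. They averaged -0.097 in ARF-128, 0.114 over 2 probes in ARF-110, -0.066 in ARF-129 and 0.140 in ARF-112. The stretch covers 86.4 kb and the near part of Ube2g1, beside Spns3, and begins 2986 kb past the last Trp53 probe. Relative to the other arrays it stood at -0.992 in ARF-104, and the mirror image of 0.651 in ARF-112 arises because ARF-104 is part of its comparison. The first and the lowest of its probes are shown.

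First probe of the stretch at chr11:72658363-72658422: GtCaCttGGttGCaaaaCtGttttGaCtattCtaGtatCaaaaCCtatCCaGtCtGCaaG
Lowest probe, in Ube2g1, at chr11:72713409-72713468: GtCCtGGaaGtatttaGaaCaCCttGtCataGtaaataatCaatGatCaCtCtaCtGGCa

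The first of these read -1.27 in ARF-104, 0.046 in ARF-128, -0.377 in ARF-129 and -0.094 in ARF-112. The lowest read -1.74 in ARF-104 and was below 0 in every other denser array too (-0.617 in ARF-112, -0.993 in ARF-129, -1.4981 in ARF-128). The segmentation of ARF-104 on its own did not call this stretch. With the penalty lowered to 2 log n it called a loss at chr11:72658363-72804212 over 19 probes, and so it did at the usual penalty after GC correction. Either way no other loss was called on the chromosome. With normexp background correction the stretch averaged -0.359 in ARF-104, and the only loss called on the chromosome then covered 0.088% of its probes, in ARF-112.

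Nearer to Trp53, a stretch of 6 probes at chr11:70456388-70487860 over Pelp1, a coactivator of steroid receptors, averaged -0.533 ± 0.235 in ARF-104. It averaged 0.805 in ARF-128, 0.099 over 2 probes in ARF-110, 0.320 in ARF-129 and 0.514 in ARF-112, and 0.087 over 2 probes in the sparser ARF-128 array. With normexp it averaged -0.178 in ARF-104, and over the probes shared by both designs -0.134. It lies 784 kb past the end of the Trp53 probes and outside the Trp53 stretch. Of its 6 probes, 5 were below 0 in ARF-104, and the exception at 0.512 was also the highest of the stretch in ARF-112 and ARF-129.

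In the other direction, 27 probes at chr11:33128896-33333541 over Tlx3, a homeobox factor, and part of Ranbp17, a nuclear transport receptor, averaged 0.308 ± 0.073 in ARF-104. They averaged -0.325 in ARF-128, 0.057 over 5 probes in ARF-110, -0.170 in ARF-129 and 0.008 in ARF-112. The sign turned in ARF-128 on its sparser array, at 0.092 over 5 probes. Over the shared probes alone the ARF-104 mean was 0.698, but every other denser array was above 0 too. These read 0.604 in ARF-128, 0.333 in ARF-112 and 0.236 in ARF-129. The shared probes include the Tlx3 probe, which read 1.56 in ARF-104, 2.31 in ARF-128, 1.11 in ARF-112 and 1.13 in ARF-129. Npm1, a nucleolar protein gene next to this stretch, read -0.274 in ARF-104.

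**Figure D5:**
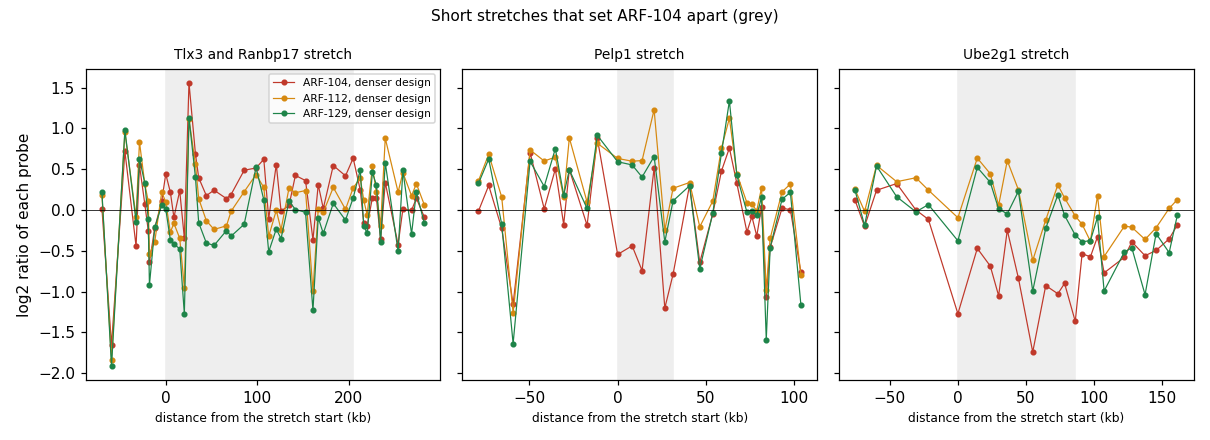
Log2 ratio of each probe around 3 short stretches (grey) in ARF-129, ARF-112 and ARF-104, by distance from the stretch start in kb. In the Ube2g1 and Pelp1 stretches ARF-104 runs below the other tumours, and in the Tlx3 and Ranbp17 stretch above them.

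Over the 5 tumours together, none of the 110 bins of 1 Mb on chromosome 11 was called by limma after Benjamini-Hochberg adjustment over all bins, against 0.642% of autosomal bins called lower and 3.9% called higher. The lowest adjusted p on the chromosome was 0.185, and 1 bin had an unadjusted p under 0.05. Only 2 bins were below 0 in all 5 tumours and 2 above 0 in all 5. With the shared probes alone limma called 3 bins lower.

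At the level of genes, limma called 86 of 1574 lower (5.46%) and 117 higher (7.43%), against 6.64% and 8.07% of all autosomal genes. These shares lie near the autosomal background. Of genes read by 1 probe, 28.1% of 467 were called, of genes with 2 probes 14.0% of 228, with 3 to 9 probes 5.58% of 699, and with 10 or more 0.556% of 180. When limma took scan day as a random block, 0 genes of either direction were called, while 143 lower and 162 higher ones had an unadjusted p under 0.05. With each gene set to its segment mean it also called 0. Leaving out ARF-129, ARF-112 or ARF-104, the tumours that share a scan day, also ended all calls.

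Among genes with 3 or more probes and 1 sign in all tumours, 17 were called lower and 22 higher. Sar1b, a GTPase of vesicle export, read -0.588 in ARF-104, -0.996 in ARF-128, -0.377 in ARF-110, -0.693 in ARF-129 and -0.515 in ARF-112 (adjusted p = 0.0155, limma). Nup85, a nuclear pore protein, averaged -0.631 ± 0.351 and Fgf18, a fibroblast growth factor, -0.459 ± 0.285 (SD, n = 5). The 3 Fgf18 probes disagreed. A probe of 26.7% G and C read -1.65 in ARF-104, -2.33 in ARF-128, -0.512 in ARF-110, -1.91 in ARF-129 and -1.84 in ARF-112. Another was above 0 in all 5 tumours, at 0.719, 1.36, 0.095, 0.981 and 0.953 in the same order. Among the higher genes, Dhx8, a splicing helicase, averaged 0.638 ± 0.310 and Mnt, a repressor that pairs with Max, 0.356 ± 0.093. All 20 genes of this kind that were followed lost their call with scan day as a block.

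For the chosen lists, each count of called genes stands against 6.64% called lower and 8.07% called higher of all autosomal genes, and 0 or 1 call in a list of 9 to 21 measured genes lies near that background. Of 18 further tumour suppressors, 15 were measured and 0 called, with a median of -0.045, against 0.023 for all genes of the chromosome. They include Flcn at -0.019, Map2k4 at -0.164 and Brca1 at -0.160. Of 22 growth genes, 21 were measured and Mafg was called higher (adjusted p = 0.184 with scan day as a block and its correlation estimated, limma). Top2a averaged -0.241 and Ppm1d, a phosphatase that restrains p53, 0.274.

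Of the neighbours of Nf2, 11 of 13 were measured and Ewsr1 was called higher (0.337, adjusted p = 0.048, and 0.174 with scan day as a block, limma). Of the neighbours of Trp53, 9 of 18 were measured and 0 called, with a median of 0.116. Of the neighbours of Nf1, 9 of 13 were measured, and Traf4, a signalling adaptor, was called lower at -0.416 (adjusted p = 0.154 with the block, limma). Of the neighbours of Egfr all 11 were measured and Fignl1 was called lower at -0.458 (adjusted p = 0.125 with the block, limma). None of these calls held with the block. Of 16 genes of TNF, JNK and NF-kB signalling 14 were measured and Traf4 alone was called. Nf2, Trp53, Nf1 and Egfr themselves were not called, at -0.068, 0.296, -0.168 and -0.063 (adjusted p of 0.639, 0.078, 0.264 and 0.632, limma).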

How the data were processed

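Array CGH signals of 5 tumours were taken from the scanner files. The intensity values were background-corrected and dye-normalized by Agilent Feature Extraction (versions 8.5.1.1, 9.1.3.1 and 9.5.3.1, per the file headers), with spatial detrending. The deposited log10 ratios of the scanner files and the deposited value table, log2 for the denser arrays and log10 for the sparser ones, served as alternatives. The normexp alternative started from the raw mean signals with an offset of 50, without that dye normalization and detrending. Here log2 of processed red over green was formed without control and outlier-flagged spots, probes spotted more than once were averaged, and the autosomal median of every array was set to 0. Segments came from penalised least squares (PELT, penalty 5 times log n, at least 5 probes, call at 0.25). Bins of 1 Mb and genes were tested with limma 3.58.1 (R 4.3.3, intercept, eBayes, Benjamini-Hochberg at 0.05). The segmentation and the gene test were checked on simulated data, the bin test was not. The simulated noise was independent between arrays, so it leaves out the probe pattern that the real arrays share. Names come from the files, updated through accessions where possible (1214 genes on chromosome 11; 602 kept the file name). Positions are mm7, per the file header. Named genes were those with 3 or more probes, 1 sign in all tumours and the smallest adjusted p, up to 10 each way, beside fixed lists, border genes and Nf2, Trp53, Nf1 and Egfr. Members and lists were chosen with earlier results of these data known. The number of arrays limits precision.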

Additional observations from a re-analysis of the deposited data

Results flagged for a closer look

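ARF-129 stands apart in the share of chromosome 11 called gained: 6.58% of its probes, with the other 4 tumours at 0 to 0.169%. ARF-104 stands apart in the Ube2g1 stretch, at -0.956 against -0.097 to 0.140 in the other tumours, a stretch that was chosen on the ARF-104 values. For normally spread values chance flags about 1 in 20 such groups of 5 values. The main results, the stretches and the named genes were all looked at this way, so some flags arise by chance. That rate does not hold for a share near 0 in most tumours or for a stretch chosen on ARF-104.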

How the results depend on the processing

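No suppressor stretch was called lost under any alternative. The chromosome mean kept its sign under all alternatives other than leaving out 1 tumour, where it ran from -0.022 to 0.043. Leaving out 1 tumour gave -0.0017 to 0.017 for the Nf2 difference from the rest of the chromosome, 0.039 to 0.066 for Trp53, -0.0093 to 0.013 for Nf1 and -0.035 to -0.012 for Egfr. Their signs turned as follows: Nf2 to -0.0082 with 1 Mb either side and -0.0011 with normexp background; Trp53 to -0.057 with shared probes only; Nf1 to 0.020 when both ARF-128 arrays were averaged, 0.00098 with normexp, 0.038 with shared probes and 0.0026 with GC correction; Egfr to 0.0018 with both ARF-128 arrays and 0.035 with shared probes. The mean share called gained was 1.35%, 15.4% at a call of 0.15 and 5.71% at a penalty of 2 log n, 0.034% at a call of 0.4 and 0.058% with normexp, and 0.042 to 1.69% without 1 tumour. The share called lost was 0.030% at 2 log n and with GC correction, and 0.018% with normexp, all 0 otherwise. The 6 borders became 32 at 2 log n, 2 at 10 log n, 15 with normexp, 3 with shared probes and 18 in the comparison with the other arrays, and 4 to 6 without 1 tumour. Bins called lower became 3 with shared probes, and stayed at 0 without any 1 tumour. Genes called lower and higher became 0 and 0 with scan day as a block and with segment means, 132 and 248 when the sparser array stood for ARF-128, 161 and 187 with shared probes; 185 were higher with both ARF-128 arrays and 24 lower with normexp. Without 1 tumour, 0 to 121 were lower and 0 to 173 higher. Egfr turned to 0.049 with the median of probes and Nf2 to 0.014 with normexp and 0.028 when ARF-128 was read on its sparser array. With segment means Nf1, Sar1b, AK083630, Dgke and Pirt turned to 0.021, Nup85 and Nol11 to 0.034 and Ccdc157 to -0.016. The cause was not tested. The ARF-129 end and the ARF-104 stretches kept their direction under every alternative run on them, but with normexp the first stood at 0.194 and the Ube2g1 stretch stood at -0.359. No paired analysis was possible because there is 1 group. Noise limits what could be seen in ARF-128 most.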
